A study of Mus musculus with 2 samples.

Results

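Major histocompatibility complex (MHC) class I molecules carry peptides from inside the cell to its surface, where CD8 T cells and natural killer cells read them. A heavy chain pairs with the light chain β2-microglobulin in the endoplasmic reticulum. The transporter TAP brings peptides into that compartment, an aminopeptidase trims them, and the chaperone tapasin helps to load them. NLRC5 is a transactivator that works at the promoters of class I genes, and macrophages express the pathway constitutively and raise it under interferon.

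The genes described here are 4 heavy chain genes (H2-K1, H2-D1, H2-T23 and H2-M3), the light chain gene B2m, the transporter genes Tap1 and Tap2, the tapasin gene Tapbp, the aminopeptidase gene Erap1 and Nlrc5. They were taken by name from the array annotation with all of their probes, which gave 10 genes of 37074 gene names and 19 probes of 56605 non-control probes. Of the 19 probes, 15 were well above background on both arrays and 4 (1 of Tap2, 2 of Erap1 and 1 of Nlrc5) on neither. No probe was above background on 1 array alone. Every gene had at least 1 probe above background that the scanner software had not marked as an outlier.

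RNA came from peritoneal macrophages (from the abdominal cavity) of MeXis null mice and of wild-type (WT) mice, both with the strain given as bl6. MeXis is a long noncoding RNA gene near the cholesterol exporter gene Abca1, and the study's title places it in macrophage cholesterol efflux. Each group was 1 one-colour Agilent array hybridised with a pool of 3 samples, after culture in DMEM with serum. The labels name no ligand, interferon or other treatment for either group, and the mice's age and the kind of deletion are not given in the sources used here.

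With 1 array per group no test could be made, so every value is a contrast of 2 arrays. A positive log2 difference means higher in MeXis null; each array was first scaled to the 75th percentile of its probes above background on both arrays. Non-control spots well above background numbered 26257 of 59305 on the MeXis null array and 28463 on the WT array. The lowest signals so marked were 27.3 on MeXis null and 12.1 on WT. Error was also read from 285 probes with several spots, among which the difference of a probe had a median SD of 0.47. The 95% range from this SD reaches 0.91, or 1.88-fold, which is called the spot limit here. The 1 MeXis probe read 8.44 on MeXis null and 12.3 on WT, and neither signal was well above background, so it checks neither label.

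The class I and peptide loading genes lay mostly within the spot limit, as did most measured genes. Over all genes 9.40% lay beyond it in the higher direction and 5.71% in the lower one. A call here needs a 1.5-fold difference outside the 95% range of the scanner error. Represented by its brightest usable probe, Erap1 was 2.81-fold higher in MeXis null, H2-M3 1.64-fold and Tapbp 1.5-fold, while no member was called lower. Those 3 of 10 stand beside 18.9% of all 15487 measured genes called higher, and the 0 of 10 beside 13.6% called lower. At 2-fold the call was Erap1 alone, against 7.67% of all genes higher and 4.55% lower. Scaling to spike-in probes gave 14.5% of all genes higher and 18.5% lower, with 2 members higher and 1 lower. Scaling to the median gave 10.4% of all genes higher and 25.8% lower, with 1 member each way. The median difference over the 10 members was 0.29, against 0.06 over all measured genes, and 6 of 10 members lay above 0, against 53.8% of all genes above 0 and 46.2% below.

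The widest difference belonged to Erap1, which encodes the aminopeptidase of the endoplasmic reticulum that trims the ends of peptides for class I. Its measured probe (chromosome 13, 74828969 to 74829028, mm9) read 171 on MeXis null and 57.8 on WT. The difference of 1.49, with a scanner error of 0.23, exceeded the spot limit of 0.91, as did 9.40% of all genes in the higher direction and 5.71% in the lower one. The other Erap1 probes read 10.3 and 7.73 on MeXis null and 12.1 and 2.29 on WT and were not above background on either array. They give no second reading, and the value of Erap1 rests on 1 spot per array.

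By their brightest usable probes the heavy chain genes ran from -0.17 to 0.72. That is closer together than 1.29, the limit for a pair of single spots, so these values do not tell the genes apart. H2-M3, a nonclassical heavy chain known for presenting formylated peptides, read 1442 on MeXis null and 832 on WT. Its difference of 0.72 (scanner error 0.20) was called at 1.5-fold but lay within the spot limit. H2-D1, a classical heavy chain, read 104974 on MeXis null and 101447 on WT, a difference of -0.03. H2-T23 encodes Qa-1, the ligand of the inhibitory receptor NKG2A. Its brighter probe read 81210.1 on MeXis null and 86955 on WT, a difference of -0.17, also within that range. A second, dimmer H2-T23 probe read 334 on MeXis null and 237 on WT, a difference of 0.42. The 2 H2-T23 probes lay on opposite sides of 0, with a gap of 0.60 that was within the limit for a pair.

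H2-K1, the other classical heavy chain, also had probes of opposite sign. One (chromosome 17, 34133055 to 34133114, mm9) read 51699.6 on MeXis null and 90972 on WT, a difference of -0.89 or 1.85-fold lower in MeXis null. The other (chromosome 17, 34133984 to 34134043, mm9) read 78576 on MeXis null and 65909 on WT, a difference of 0.18. The gap of 1.07 between them was within 1.29, the limit for a pair of single spots. The second probe represents the gene here because it had the higher mean signal. By the first, H2-K1 would be called lower.

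Part of the second H2-K1 probe is shared with probes of other heavy chains. A run of 29 bases occurs in that probe, in the brighter H2-T23 probe and in a probe named H2-L (a heavy chain of other H2 haplotypes), all on chromosome 17. The 3 probes are shown 5′ to 3′ because heavy chain genes are alike in sequence; whether a probe binds transcripts of another heavy chain was not tested. The shared run is in capitals.
H2-K1 probe: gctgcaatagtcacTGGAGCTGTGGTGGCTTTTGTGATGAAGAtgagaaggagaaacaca
H2-T23 probe: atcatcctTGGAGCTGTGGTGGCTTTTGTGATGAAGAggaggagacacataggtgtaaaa
H2-L probe: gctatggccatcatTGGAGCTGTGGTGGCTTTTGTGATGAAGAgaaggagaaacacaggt

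The H2-T23 probe, whose 60 bases are spread over 237 bases of the genome on the minus strand (36167338 to 36167574, mm9), matched the H2-L probe at 48 of 54 aligned bases. The H2-K1 probe shared a run of at least 18 bases with 4 other probes on the array, and the H2-T23 probe with 5. No such run was found for the other member probes, among them the first H2-K1 probe, the dimmer H2-T23 probe and those of H2-D1 and H2-M3. The H2-L probe (35403191 to 35403250, mm9) lies 695 bases from the H2-D1 probe, on the same strand. Whether it reads H2-D1 transcripts in these mice was not tested. The H2-L probe read 71493 on MeXis null and 103626 on WT, a difference of -0.61. If it does read H2-D1, the -0.03 of the H2-D1 probe is not the only reading of that gene. The probes that share these runs therefore ranged from below to above 0, and no single direction can be given for H2-K1 or H2-T23.

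Both probes of the light chain gene B2m lay above 0. The dimmer probe (chromosome 2, 121974599 to 121974658, mm9) read 427 on MeXis null and 309 on WT, a difference of 0.39 that lay within the 95% range of its scanner error of 0.21. The brighter probe (121978401 to 121978460) read 43044 on MeXis null and 24648 on WT, a difference of 0.73, but its WT spot carried an outlier mark for uneven pixels. Pixels of that WT spot varied with a coefficient of variation of 51.4%, against 8.32% in the MeXis null spot of the same probe. Its raw pixel median, less moved by a few bright pixels than the mean, was 39172 on MeXis null and 17440 on WT. With marked spots kept, B2m would be called higher and the count would be 4 of 10, beside the same 18.9% of all genes.

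Genes of peptide transport and loading lay on both sides of 0, with gaps between them under 1.29, the limit for a pair of single spots. The tapasin gene Tapbp read 32461 on MeXis null and 20523 on WT on its brighter probe, a difference of 0.59 that lies at the 1.5-fold threshold. Its dimmer probe read 982 on MeXis null and 712 on WT, a difference of 0.39. Tap2, a subunit of the TAP transporter, read 7955 on MeXis null and 5747 on WT, a difference of 0.39. Tap1, the other subunit, was at -0.12 on 1 probe (545 on MeXis null and 561 on WT) and at -0.36 on the other (286 on MeXis null and 348 on WT). The 3 genes were all within the spot limit.

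Nlrc5 read 619 on MeXis null and 822 on WT (chromosome 8, 97051105 to 97051164, mm9), a difference of -0.49. This exceeded the 95% range of the scanner error of 0.20 but not 1.5-fold, and it was the lowest of the 10 members. The dimmer Nlrc5 probe, at 8.24 on MeXis null and 15.1 on WT, was not above background.

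**Figure D1:**
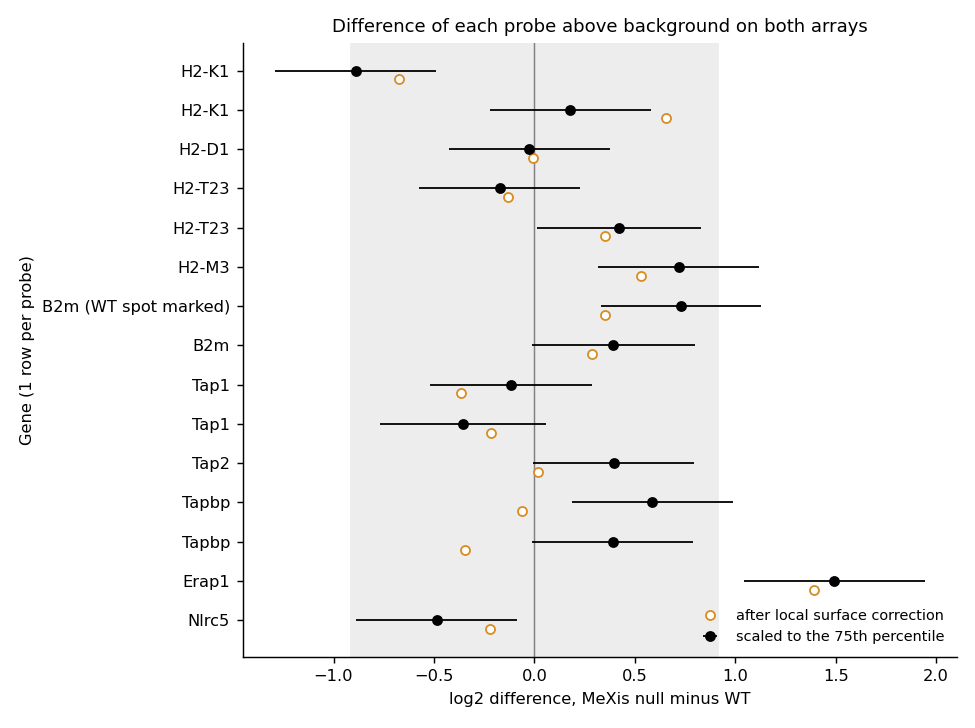
Log2 difference (MeXis null minus WT) of each of the 15 probes above background on both arrays, with black bars for the 95% range of the scanner error and the value after local surface correction (open orange circles). The grey band marks the 0.91 spot limit; Erap1, at 1.49, is the probe outside it.

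Position on the array touched some of these values. The median difference of the 100 nearest spots above background ranged from -0.48 around the second H2-K1 probe to 0.74 around the dimmer Tapbp probe, among the 14 usable member probes. It was 0.65 around the brighter Tapbp probe, 0.38 around the measured Tap2 probe and 0.10 around the Erap1 probe. With that local median subtracted, called local surface correction here, Tapbp was at -0.06, Tap2 at 0.02, H2-M3 at 0.53 and Erap1 at 1.39. The brighter, marked B2m probe was then at 0.35 and the dimmer one at 0.29. The H2-K1 probes moved apart, to -0.67 and 0.66, and their gap of 1.33 exceeded the 0.95 that the smaller spread between corrected spots allows. The median over the 10 members became 0.01, against -0.03 over all genes. Members called higher were then Erap1 and, no longer including H2-M3 or Tapbp, H2-K1 by its second probe, or 2 of 10 beside 11.6% of all genes; none was called lower, beside 12.9%.

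**Figure D2:**
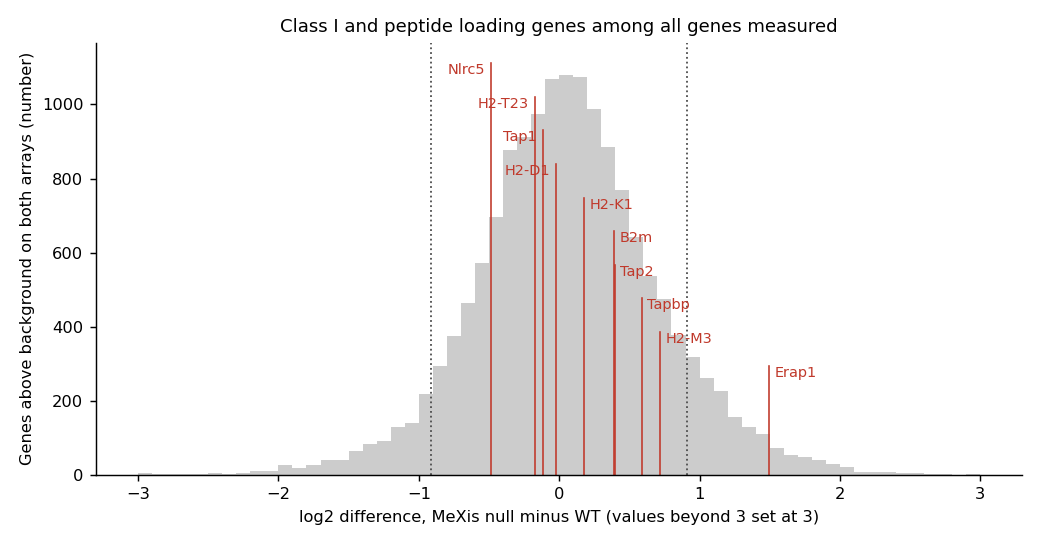
Distribution of the log2 difference (MeXis null minus WT) over all 15487 genes above background on both arrays (grey), with the 10 members as red lines of arbitrary height and the 0.91 spot limit as dotted lines. Members run from Nlrc5 at -0.49 to Erap1 at 1.49, and 9 of them lie between the dotted lines. Of all genes 9.40% lie beyond the upper line and 5.71% beyond the lower one.

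Promoters of class I genes carry an enhancer with a kappa B site and an interferon response element, followed by the SXY module through which NLRC5 and its partners act. RefSeq promoter windows (GRCm38.p6, 250 bases before to 50 after the gene start) were found for 8 of the 10 members, not for Tap2 and Nlrc5. The letters TGACG, any 20 bases and ATTGG, a spacing read from these promoters and then searched on both strands, occurred in 4 of the 8 (H2-K1, H2-D1, H2-M3 and B2m). They occurred in 31 of all 32817 windows, or 0.0945%, the windows of these members included. Since the spacing came from the members, their share beside this one is no test. The kappa B letters GGGATTCCC occurred in H2-K1 and H2-D1 and in 0.353% of all windows. The short letters TTTCNNTT, the core of an interferon response element, occurred in 6 of the 8 and in 23.9% of all windows. In the members' windows none of these motifs overlapped another.

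The stretches that hold the TGACG and ATTGG pair are shown because Nlrc5 and all 4 genes were measured here. Capitals mark the motifs, on the strand of the gene, in GRCm38.p6.
H2-K1 (minus strand, chr17:34000356-34000460): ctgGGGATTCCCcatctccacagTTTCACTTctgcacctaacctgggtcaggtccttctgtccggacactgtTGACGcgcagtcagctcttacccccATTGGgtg
H2-D1 (plus strand, chr17:35262921-35263025): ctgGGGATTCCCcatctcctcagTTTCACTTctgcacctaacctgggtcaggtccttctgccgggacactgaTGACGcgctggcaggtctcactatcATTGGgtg
H2-M3 (plus strand, chr17:37270130-37270220): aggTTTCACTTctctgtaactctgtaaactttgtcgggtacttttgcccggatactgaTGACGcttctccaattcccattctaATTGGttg
B2m (plus strand, chr2:122147547-122147641): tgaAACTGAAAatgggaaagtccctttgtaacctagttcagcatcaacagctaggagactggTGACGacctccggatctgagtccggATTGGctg

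The H2-K1 and H2-D1 stretches have the same 3 motifs in the same order, H2-M3 lacks the kappa B letters, and B2m holds the interferon response core on the opposite strand. Beside these sequences the measured differences were 0.72 for H2-M3, -0.03 for H2-D1 and 0.39 for B2m, with 0.73 on its marked probe. H2-K1 was at 0.18 by the probe with a shared run and at -0.89 by the other, and Nlrc5 was at -0.49. Each of these values lay within the spot limit, and whether Nlrc5 acts on these genes was not tested. Erap1, which lay outside the spot limit, holds the TTTCNNTT core at its gene start and not the pair.

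Other genes of the pathway were measured from a wider list. Of 34 genes on the array 28 were above background on both arrays, 4 on neither (H2-M10.1, H2-M5, H2-M9 and H2-Q1) and 2 (Calr and Psmb8) had marked spots alone. At 1.5-fold 5 of the 28 were called higher, beside 18.9% of all genes, and 6 were called lower, beside 13.6%. The median difference was 0.01.

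The highest of the wider list was H2-T22, a nonclassical heavy chain recognised by gamma delta T cells, which read 5549 on MeXis null and 1491 on WT, a difference of 1.82 (1.18 after local surface correction). Cd1d1, which presents lipids to NKT cells, read 1013 on MeXis null and 393 on WT, a difference of 1.29. The lowest was Canx, the lectin chaperone of newly made heavy chains, at 7841 on MeXis null and 27870 on WT (a difference of -1.90). A second Canx probe differed by -0.44. Pdia3, the oxidoreductase of the loading complex, differed by -0.94 on its brighter probe and by 0.95 on another, so its direction is not settled.

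Among the interferon-inducible proteasome subunits, which shift peptide cutting toward class I ligands, Psmb10 read 15175 on MeXis null and 8775 on WT, a difference of 0.72. Psmb9 differed by 0.19. The Psmb8 spot was marked as an outlier on MeXis null, where it read 5790.1, against 2121 on WT. Tapbpl, the tapasin homologue, differed by 0.04.

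Regulators of class I transcription were not called higher in MeXis null by their brightest usable probes. Of 22 listed genes 21 were above background on both arrays (median difference -0.13). Of these 0 were called higher, beside 18.9% of all genes, and 4 were called lower, beside 13.6%. The lowest was the interferon receptor chain gene Ifnar2, at 1741 on MeXis null and 4118 on WT, a difference of -1.32, which was -0.64 after local surface correction. A second Ifnar2 probe, with a marked WT spot, differed by 0.74. The kinase gene Tyk2 was next lowest at -0.66, and at 0.07 after that correction. Irf2 (-0.63) and Jak2 (-0.61) were also called lower, and were at -0.84 and -0.90 after it. A second Irf2 probe, dimmer but above background on both arrays, differed by 0.93. Nfkb1 (0.51) and Irf9 (0.29) were the highest by their brightest probes. The other Nfkb1 probes differed by 0.66 and -0.71, and the other Irf9 probe by 0.89. Irf1 differed by -0.38 and by 0.45 on its 2 probes. Rfx5, a DNA-binding partner of NLRC5, was not above background on either array.

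**Figure D3:**
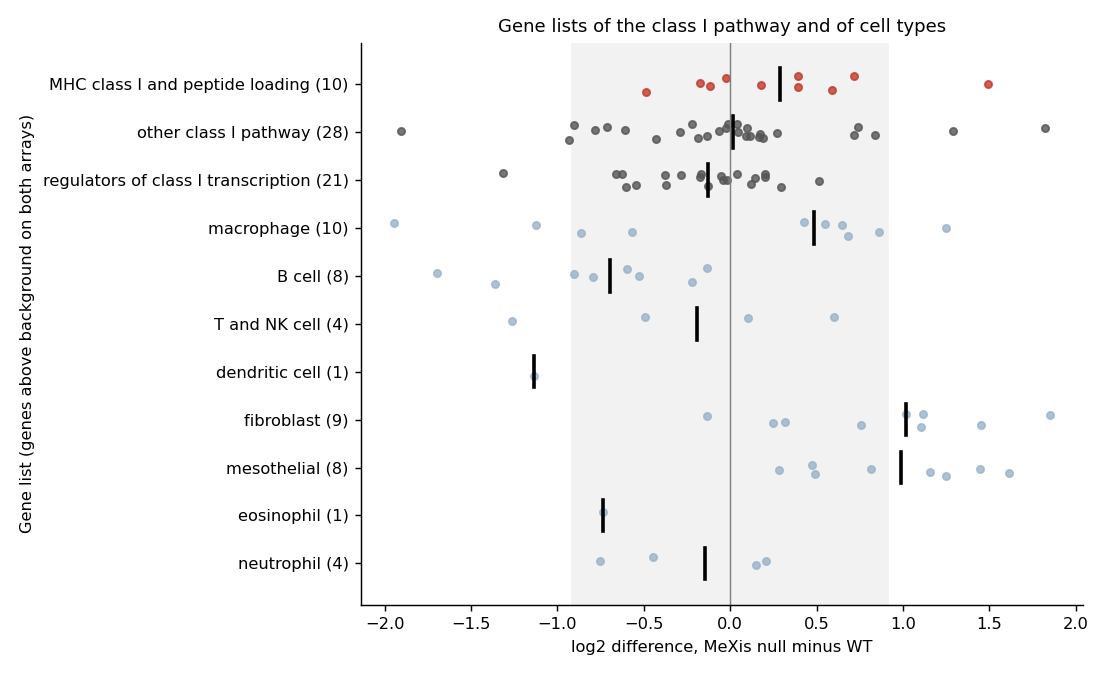
Log2 difference (MeXis null minus WT) of each gene above background on both arrays, by gene list, with the list median as a black bar, the number of genes in brackets and the 0.91 spot limit as a grey band. The class I and peptide loading genes (red) have a median of 0.29, between the fibroblast and mesothelial lists (1.02 and 0.99) and the B cell list (-0.70).

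Class I genes are expressed by nearly all nucleated cells, so markers of other cells in the pools are given beside them. In pooled RNA fewer cells of a type and less RNA per cell cannot be told apart. The marker counts stand beside 18.9% of all genes called higher and 13.6% called lower. All 10 macrophage markers were above background on both arrays, with 4 called higher and 3 lower, from Lyz2 at 1.25 to Mertk at -1.95. Their median was 0.49, or 0.06 after local surface correction. With that correction 1 was called higher and 3 lower, beside 11.6% and 12.9% of all genes. Fibroblast markers had 6 of 9 measured genes higher and 0 lower, from Fbn1 at 1.85 to Col3a1 at -0.13, with Lum above background on WT only and Mfap5 and Pdgfrb on neither. Mesothelial markers had 5 of 8 higher and 0 lower, from Wt1 at 1.61 to Krt8 at 0.28.

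B cell markers had 0 of 8 measured genes higher, beside 18.9% of all genes, and 5 lower, beside 13.6%. They ran from Cd22 at -0.13 to Cd79b at -1.70, with Ebf1 and Pax5 above background on WT only. Summed signals, in multiples of each array's 75th percentile, were 123 on MeXis null and 87.4 on WT for macrophage markers. Of these Cd68 made up 42.9% on MeXis null and 37.5% on WT. Lyz2 entered by a probe that differed by 1.25, or 0.55 after local surface correction, while its other probe differed by 0.22. The sums were 3.69 on MeXis null and 2.15 on WT for fibroblast markers, and 0.64 on MeXis null and 0.28 on WT for mesothelial markers. For B cell markers they were 12.3 on MeXis null and 18.7 on WT, of which Blnk, a signalling adaptor, made up 94.5% on MeXis null and 94.2% on WT. Blnk differed by -0.60, and by 0.0011 after local surface correction. The other 7 B cell markers summed to 0.67 on MeXis null and 1.09 on WT. Of the remaining lists, 4 of 10 T and NK cell, 1 of 6 dendritic cell, 1 of 5 eosinophil and 4 of 7 neutrophil markers were above background on both arrays. In these lists the highest and lowest were Prf1 (0.60) and Cd2 (-1.27) for T and NK cells, and Elane (0.21) and Csf3r (-0.76) for neutrophils. Cd3d, Cd5, Cxcr2 and Il5ra were above background on WT only. Cd3g, Cd8a, Klrb1c and Nkg7 of T and NK cells, and Ly6g and S100a9 of neutrophils, were above background on neither array. Ccr7 (-1.13) and Siglecf (-0.73) were the measured dendritic cell and eosinophil markers; Cd209a, Clec9a, Flt3, Xcr1, Zbtb46, Ccr3, Epx and Prg2 of these lists were above background on neither array. The part of these cells in the class I values was not tested.

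**Figure D4:**
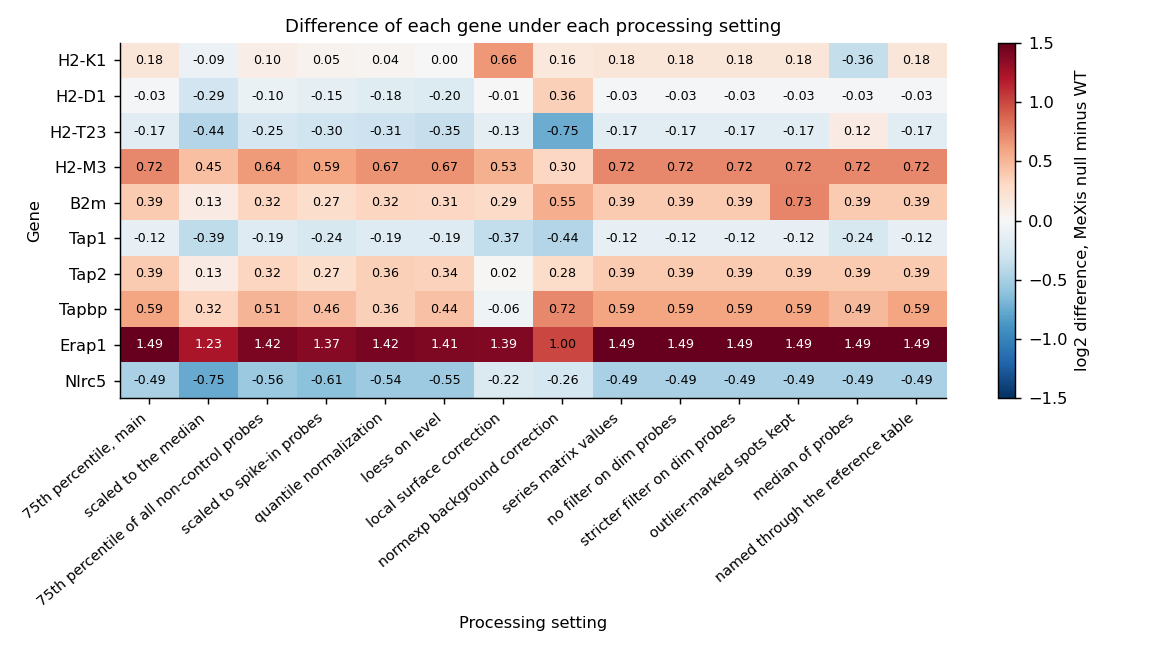
Log2 difference (MeXis null minus WT) of each member gene (rows) under each processing setting (columns), as numbers and colour. Erap1 stays between 1.00 and 1.49 and Nlrc5 between -0.75 and -0.22 in every column, while the sign of H2-K1, H2-D1, H2-T23 and Tapbp depends on the column.

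Of the other settings tried, 7 or 8 changed the value of a given member and the rest left it as it was. Erap1 was past 1.5-fold in all 7 that changed it, down to 1.00 with normexp. Normexp is another background correction, applied here to raw spot means from which the scanner software had not removed surface trends. H2-M3 was past 1.5-fold in 4 of the 7 that changed it and lay between 0.30 and 0.72. Tapbp lay between -0.06 and 0.72 and was past 1.5-fold in 1 of the 8 that changed it, normexp. B2m lay between 0.13 and 0.73 and Tap2 between 0.02 and 0.39. Nlrc5 lay between -0.75 and -0.22 and Tap1 between -0.44 and -0.12. H2-K1 ranged from -0.36, by the median of its probes, to 0.66, and H2-T23 from -0.75 to 0.12. H2-D1 was above 0 with normexp alone, at 0.36.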

How the data were processed

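The authors deposited 1 scanner file per array, holding spot intensity from Feature Extraction 11.5.1.1 (Agilent), as the headers of the deposited files say, with background subtracted and surface trends removed; probe coordinates are on mm9, for which no exon or UTR annotation was used here. For all 62976 features the series matrix held the same intensity as the scanner files, so the deposited matrix is linear and not centred (medians 17.0 on MeXis null and 12.9 on WT). No spot was saturated.

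Control spots and spots marked as outliers on either array (205 on MeXis null, 305 on WT) were left out. Processed signals were scaled to the 75th percentile of probes above background on both arrays, since under 50% of all probes were, and spots of 1 probe were averaged as log2. Genes kept the names of the array files and were represented by the probe with the highest mean. The spot limit is the 95% range from the median SD over probes with at least 5 usable spots. Depth does not apply to arrays; their number, 1 per group, limits the precision. Normexp used limma 3.58.1 with an offset of 50 on raw spot means and background medians, so surface trends were not removed. Other steps used numpy 2.4.6, pandas 2.3.3 and statsmodels 0.14.6. Scaling and calls were run on simulated data made from the WT array. These had no array-wide shift and no position trend, so how scaling handles either was not tested.

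The members, lists, settings and the rule for named genes were chosen with earlier results of these data known. Named were all members with all probes, the 2 highest and 2 lowest genes of both pathway lists, Psmb8, Psmb9, Psmb10, Tapbpl, Irf1 and Rfx5, and the highest and lowest marker of each cell type; other genes were named after their values were seen, and 1 gene of the rule is not reported here. With 2 arrays no likeness of patterns could be computed. The promoter motif with its spacing of 20 bases was chosen after reading the members' promoters.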

Additional observations from a re-analysis of the deposited data

How the results depend on the processing

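The 10 members kept a median above 0 under every setting, from 0.01 (local surface correction) to 0.29. With no filter on dim probes, however, all genes had a median of 0.48, above the 0.29 of members. Scaling to the median moved all genes by about 0.27, so that the median of all genes was -0.21 and that of members 0.02; scaling to spike-in probes gave -0.07 over all genes and 0.16 over members. Members called higher were 3, but 1 at 2-fold, 1 at the spot limit and 1 when scaled to the median, against 7.67%, 9.40% and 10.4% of all genes. Members called lower were 0, but 1 when scaled to the median, 1 when scaled to spike-in probes (both Nlrc5) and 1 with normexp (H2-T23), against 25.8%, 18.5% and 12.4% of all genes. Tapbp, called higher, turned to -0.061 with local surface correction; the causes were not tested. Erap1 kept its call in the 7 settings that changed its value. Erap1 (1.00) and H2-T23 (-0.75) moved by more than the SD between spots with normexp, and H2-K1 with local surface correction (0.66) and by the median of its probes (-0.36). Normexp differs from the main setting in surface trends as well as in background. Which of these moved Erap1 and H2-T23 was not tested. No paired analysis was possible because each group had 1 array. Erap1 was read near the lower end of the signals above background.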

Other observations

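The probe named H2-L lies 695 bases from that of H2-D1 on chromosome 17 by the deposited mm9 coordinates, on the same strand. It differed by -0.61, against -0.03 for the H2-D1 probe, and a second probe named H2-L differed by 0.07. The nonclassical heavy chain genes H2-T10 (0.84) and H2-T9 (0.74), whose probes read 1725 and 1727 on MeXis null and 915 and 982 on WT, were called higher beside H2-T22 (1.82). H2-T24 (-0.71) was called lower, and its second probe differed by -0.26. After local surface correction H2-T10 was at 0.87, while H2-T9 (0.27) and H2-T24 (-0.52) were no longer called. These T region genes were named after their values were seen, and the H2-T9, H2-T10 and H2-T22 copies are closely related in sequence; whether these probes separate the copies was not tested. Calr, the calreticulin gene of the loading complex, read 14875 on MeXis null and 8379 on WT on 1 spot marked as an outlier on WT, a difference of 0.75.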
